A study of Mus musculus with 6 samples.

Results

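The Notch signaling genes described here are 10 genes, the receptors *Notch1*, *Notch2*, *Notch3* and *Notch4*, the ligands *Dll1*, *Dll4*, *Jag1* and *Jag2*, and the target genes *Hes1* and *Hey1*. They were taken by gene name from the 31613 genes of the deposited count table, each name matched 1 gene, and all 10 passed the filter on low counts that left 16519 genes to test. RNA-seq was performed on mDPCs (dental papilla cells of the mouse), a mesenchymal population that holds the odontoblast lineage, isolated at postnatal day 6 (P6). The comparison is of 3 libraries from *Dmp1*-Cre;*Setd2*fl/fl mice, called mutant here, with 3 libraries from control mice, and RNA of 3 biological replicates was pooled for every library. In the mutant mice both alleles of *Setd2*, which encodes the histone methyltransferase that trimethylates H3K36, are floxed and deleted by a Cre recombinase under the *Dmp1* promoter, which is active in the odontoblast layer. The control mice are labeled wild type, whereas the study's list of mice gives *Setd2*fl/fl as the genotype of the controls for this collection. That list holds fewer mice of each genotype than 3 pools of 3 separate mice would need, so the pools of a group may share animals, and every test here treats the 3 libraries as independent.

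Notch receptors are single-pass membrane proteins that are cleaved when a ligand on a neighboring cell binds them. The released intracellular domain enters the nucleus, joins the DNA-binding protein RBPJ and switches on target genes, among them the Hes and Hey repressors. In the tooth, Notch ligands of the Jagged and Delta families are known from the enamel epithelium and the papilla, NOTCH3 is a receptor of the mural cells that wrap small vessels, and NOTCH4 and DLL4 are known from vascular endothelium.

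Of the 10 Notch genes, none passed the thresholds the study used, which ask for an unadjusted p under 0.05 together with a change of 0.58 or more on the log2 scale, between mutant and control libraries. By the same rule 2.71% of all tested genes were lower and 1.10% were higher in mutant libraries. At an adjusted p under 0.05, edgeR's quasi-likelihood test with Benjamini-Hochberg adjustment called 0 of the 10 and 0% of all genes, and DESeq2 also called 0 of the 10. At an unadjusted p under 0.05 alone, 1 of the 10 was found by edgeR and 1 by DESeq2, *Hes1* in both, against a share of 7.58% of all genes by edgeR. *Hes1* was no longer past that threshold by edgeR when any 1 of the 5 libraries other than mutant replicate 3 was left out, with log2 fold changes from -0.54 to -0.33. The spread between libraries differed from gene to gene. *Notch2*, *Notch3*, *Dll1* and *Hey1* varied little across the 6 libraries, whereas *Notch4*, *Dll4*, *Jag1* and *Jag2* spread widely within the mutant group, with replicate 3 far above replicates 1 and 2.

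**Figure D1:**
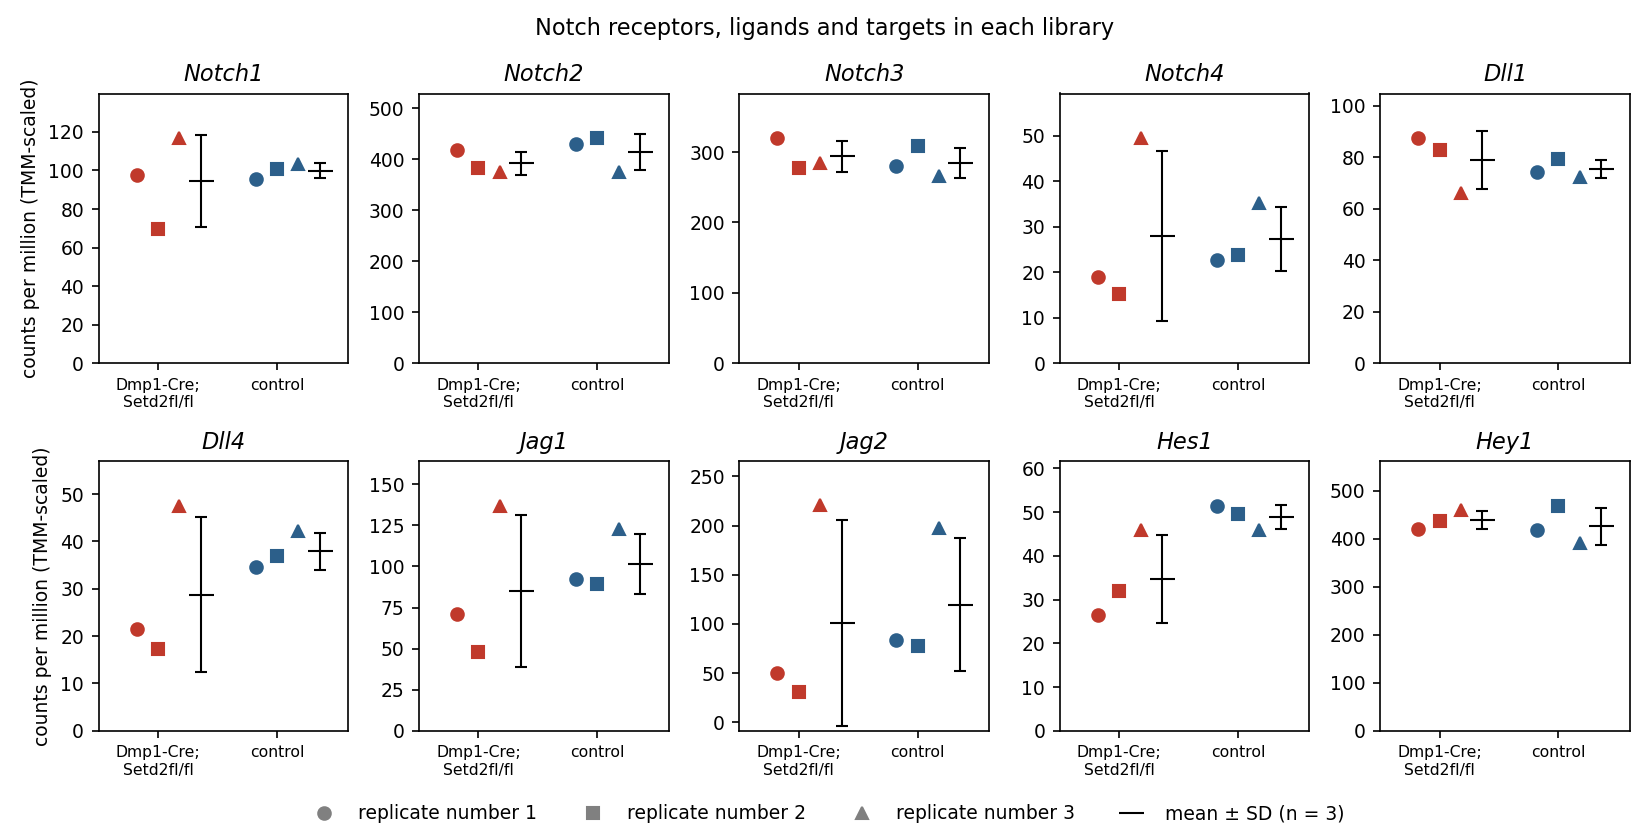
CPM (a gene's counts scaled to the size of the library, by the trimmed mean of M values, TMM) of the 10 Notch genes in each library, mutant (labeled Dmp1-Cre;Setd2fl/fl) at the left and control at the right of each panel. Symbols mark the replicate number, and the bars give the mean ± SD of 3 libraries. On this scale *Hes1* is the only gene whose groups do not overlap, by 45.9 against 46.0 CPM in replicate 3. For *Notch1*, *Notch4*, *Dll4*, *Jag1* and *Jag2* the triangle of replicate 3 stands highest in both groups.

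The libraries held between 18557647 and 19210750 counts each. The *Setd2* transcript itself was at 102.1, 98.5 and 96.0 CPM in mutant libraries and at 98, 96.5 and 92.0 CPM in control libraries, and a count over the whole gene is no check of a deletion of part of a gene in part of the cells. *Dspp*, the odontoblast gene of the main noncollagenous dentin proteins, was at 436.1, 214.6 and 5299 CPM in mutant libraries and at 14165, 14372 and 13900 CPM in control libraries, so replicate 3 of the mutant group lay nearer to the controls than replicates 1 and 2. The 8 papilla mesenchyme markers, which check the label, had sums of 1278 to 1545 CPM in mutant and 1292 to 1403 CPM in control libraries. Of the 7 that were tested, *Lhx8* was lower at the study's thresholds, at 15.6, 10.3 and 13.5 CPM in mutant and 18.5, 19.4 and 22.8 CPM in control libraries (log2 fold change -0.62, SE 0.19, adjusted p = 0.625 by edgeR). Markers of other cells were present in both groups. The 10 dental epithelium markers summed to 7247, 2330 and 50429 CPM in mutant replicates 1, 2 and 3, against 7406, 2735 and 30559 CPM in control replicates 1, 2 and 3. The 11 endothelial markers summed to 405.0, 436.0 and 978.2 CPM in mutant libraries, against 399.6, 442.7 and 617.9 CPM in control libraries. Replicate 3 was thus the library richest in epithelial and endothelial transcripts in either group, and no marker of these 2 lists was at 0 in all libraries. The 8 macrophage markers ran the other way, with sums of 1178, 1377 and 531.5 CPM in mutant and 882.7, 990.7 and 706.1 CPM in control libraries. In bulk RNA, fewer cells of a type and less RNA per cell cannot be told apart.

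The 4 Notch genes that moved together across libraries are shown by the sequence around their start sites. The promoters are 300 bases from RefSeq (mouse build GRCm38.p6), from 250 bases before to 50 bases after the gene start, printed 5′ to 3′ along the strand of the gene. Capitals mark CACGCG or its reverse complement CGCGTG, a class C site of the kind that Hes and Hey proteins bind.
*Notch4* (chr17:34564045-34564344, plus strand): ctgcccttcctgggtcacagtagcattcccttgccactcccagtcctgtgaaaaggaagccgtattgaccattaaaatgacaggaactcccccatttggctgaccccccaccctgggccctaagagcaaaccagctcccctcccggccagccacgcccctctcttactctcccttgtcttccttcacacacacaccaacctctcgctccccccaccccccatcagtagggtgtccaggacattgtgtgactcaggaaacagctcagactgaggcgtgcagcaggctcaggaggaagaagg
*Dll4* (chr2:119325534-119325833, plus strand): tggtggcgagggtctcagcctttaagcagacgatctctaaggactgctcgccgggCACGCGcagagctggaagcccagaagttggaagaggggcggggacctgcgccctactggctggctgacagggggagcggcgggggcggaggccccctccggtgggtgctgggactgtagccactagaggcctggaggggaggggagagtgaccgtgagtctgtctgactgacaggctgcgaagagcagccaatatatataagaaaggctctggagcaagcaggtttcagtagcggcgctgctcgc
*Jag1* (chr2:137116471-137116770, minus strand): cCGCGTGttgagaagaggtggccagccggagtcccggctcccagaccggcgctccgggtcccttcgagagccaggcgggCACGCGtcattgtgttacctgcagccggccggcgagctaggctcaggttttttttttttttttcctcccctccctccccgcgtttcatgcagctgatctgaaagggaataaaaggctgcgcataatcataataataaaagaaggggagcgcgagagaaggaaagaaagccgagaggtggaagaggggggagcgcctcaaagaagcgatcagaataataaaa
*Jag2* (chr12:112929446-112929745, minus strand): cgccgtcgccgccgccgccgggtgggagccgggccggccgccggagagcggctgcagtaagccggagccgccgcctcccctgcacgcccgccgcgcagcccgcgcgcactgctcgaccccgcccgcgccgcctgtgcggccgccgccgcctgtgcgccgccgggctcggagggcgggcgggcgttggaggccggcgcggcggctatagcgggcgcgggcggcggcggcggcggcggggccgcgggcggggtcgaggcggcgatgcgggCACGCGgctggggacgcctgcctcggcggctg

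The class C site was found once in the *Dll4* window, starting 195 bases before the start, and once in the *Jag2* window, 18 bases after it, counted from the RefSeq start. *Jag1* held it at 249 and 171 bases before the start, and the *Notch4* window held none. The RefSeq start is not always that of the deposited table, whose coordinates are given with each gene. It is the same for *Dll4* and lies 27 bases inside the gene of the table for *Notch4*, 124 bases for *Jag1* and 281 bases for *Jag2*, so the *Jag2* window lies wholly within that gene. In all, 9 promoter entries matched 8 of the 10 genes (*Dll1* has more than 1 entry, and *Hes1* and *Hey1* have none), and 5 of the 9 held CACGCG on either strand, against 9.27% of the 32851 mouse promoters of the same length. Of the 9, the *Notch1* window and 1 *Dll1* window also lie wholly inside the gene of the table. Their RefSeq starts are 12841 and 1049 bases inside it. The 9 entries ran from 55.7% (*Jag1*) to 86.0% (*Jag2*) G and C, all above the median of 52.7% over all promoters. The share of 9.27% is not matched for G and C. The RBPJ core TGGGAA, on either strand (TTCCCA), was found in none of the 9 entries and in 25.6% of all promoters. The E-box CACGTG, which reads the same on both strands, was found in none of the 9 and in 7.15% of all. These matches describe letters in a window only.

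Per kilobase of exon, *Hey1* had the highest level of the 10 genes. Levels were compared between genes as CPM divided by the length of all exons of the gene (GENCODE vM39). *Hey1* was at 91.5 ± 4.09 CPM per kilobase in mutant and 88.7 ± 8.19 in control libraries (SD, n = 3 each). *Notch2*, at 34.8 ± 2.06 in mutant and 36.9 ± 3.14 in control, and *Notch3*, at 32.6 ± 2.48 in mutant and 31.6 ± 2.38 in control, followed, and their ranges overlapped in both groups. *Jag1*, *Jag2*, *Dll1* and *Hes1* formed the next tier, from 14.5 to 17.0 in control libraries, with ranges that overlapped from each to the next. *Dll4* (9.61 ± 0.979) and *Notch1* (7.02 ± 0.269) came below them in control libraries without overlap, and *Notch4* was lowest, at 3.15 ± 2.11 CPM per kilobase in mutant and 3.08 ± 0.782 in control libraries. The order below *Hey1* depended on the length used: with the longest coding length *Hes1* stood at rank 2 in place of rank 7.

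Among the receptors, *Notch2* and *Notch3* carried most of the counts, and their groups overlapped. *Notch2* (ENSMUSG00000027878, chr3:98013527-98150361, plus strand), a receptor expressed widely in mesenchyme, had 418.5, 382.3 and 375.2 CPM in mutant libraries and 430.1, 441.1 and 375.0 CPM in control libraries. Its log2 fold change was -0.08 (SE 0.12, adjusted p = 0.866 by edgeR), and the groups overlapped. *Notch3* (ENSMUSG00000038146, chr17:32120820-32166880, minus strand), the mural cell receptor, had 319.3, 277.3 and 285.0 CPM in mutant and 279.6, 307.9 and 265.8 CPM in control libraries. No library stood apart for *Notch3*, whose log2 fold change was 0.05 (SE 0.11, adjusted p = 0.926 by edgeR). Coordinates are those of the deposited table, which are on GRCm38, since 47.4% of 24507 genes share a start or an end with RefSeq on GRCm38.p6 and 1.25% of 30418 with GENCODE on GRCm39.

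*Notch1* and *Notch4* differed more within the mutant group than between the groups. *Notch1* (ENSMUSG00000026923, chr2:26457903-26516663, minus strand), the receptor with the broadest developmental roles, had 97.8, 69.5 and 116.6 CPM in mutant libraries, against 95.8, 100.8 and 103.2 CPM in control libraries. The mutant libraries lay on both sides of the control range, with a coefficient of variation of 25.1% in mutant and 3.83% in control, and the log2 fold change was -0.08 (SE 0.19, adjusted p = 0.924 by edgeR). Of its exon bases, 14.0% are shared with *0610009E02Rik* on the opposite strand, which had at most 15 counts. *Notch4* (ENSMUSG00000015468, chr17:34564268-34588503, plus strand), the endothelial receptor, had 19, 15.3 and 49.4 CPM in mutant and 22.7, 23.9 and 35.3 CPM in control libraries. Mutant replicates 1 and 2 were below every control and replicate 3 was above every control. The log2 fold change of *Notch4* was 0.03 (SE 0.46, adjusted p = 0.991 by edgeR) with all libraries and -0.67 (SE 0.22, adjusted p = 0.160) without mutant replicate 3.

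The ligands *Dll4*, *Jag1* and *Jag2* shared this pattern, and *Dll1* did not. *Dll4* (ENSMUSG00000027314, chr2:119325784-119335962, plus strand), the ligand of sprouting and arterial endothelium, had 21.6, 17.2 and 47.5 CPM in mutant libraries and 34.6, 36.9 and 42.2 CPM in control libraries. Replicates 1 and 2 of the mutant group were below every control, and replicate 3 was the highest of the 6. The log2 fold change of *Dll4* was -0.40 (SE 0.37, adjusted p = 0.787 by edgeR). Of its exon bases, 15.6% are shared with the opposite-strand gene *Gm14207*, and the reads were counted without regard to strand, so a part of its counts is uncertain.

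*Jag1* (ENSMUSG00000027276, chr2:137081456-137116644, minus strand), a Jagged ligand of epithelium, endothelium and mesenchyme, had 70.8, 48.0 and 136.8 CPM in mutant libraries and 92.4, 89.2 and 122.6 CPM in control libraries. *Jag2* (ENSMUSG00000002799, chr12:112907819-112929776, minus strand), a Jagged ligand prominent in oral and dental epithelium, had 50, 30.8 and 221.3 CPM in mutant and 84.1, 77.3 and 197.6 CPM in control libraries. Both ligands were lowest in mutant replicates 1 and 2 and highest in the 2 libraries of replicate 3, so that the groups overlapped. *Jag1* had a log2 fold change of -0.25 (SE 0.37, adjusted p = 0.876 by edgeR), and *Jag2* had -0.25 (SE 0.77, adjusted p = 0.945), the widest error of the 10 genes.

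*Dll1* (ENSMUSG00000014773, chr17:15367354-15376872, minus strand), a Delta ligand, had 87.3, 83.0 and 66.1 CPM in mutant libraries and 74.4, 79.2 and 72.3 CPM in control libraries. It ran the other way, lowest in mutant replicate 3, with a log2 fold change of 0.07 (SE 0.13, adjusted p = 0.907 by edgeR). The macrophage sum was also lowest in mutant replicate 3 and highest in mutant replicates 1 and 2, and its part in the *Dll1* level was not tested. Of its exon bases, 27.6% are shared with *Fam120b* on the opposite strand, which reached 1322 counts. Without strand, reads from the shared bases cannot be told apart. *Dll1* counts are thus uncertain, to an extent that was not measured.

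Of the target genes, *Hes1* was lower in every mutant library after TMM scaling, barely so in replicate 3, and *Hey1* was not. *Hes1* (ENSMUSG00000022528, chr16:30064384-30067796, plus strand), a basic helix-loop-helix repressor and the classic Notch target, had 26.5, 31.9 and 45.9 CPM in mutant libraries, against 51.4, 49.5 and 46.0 CPM in control libraries. The groups did not overlap, although the replicate 3 libraries of the 2 groups nearly touched. Every mutant library lay below every control for 7.98% of all genes tested, so 1 such gene in 10 is near that share, and every mutant library lay above every control for 7.26% of all genes and for 0 of the 10. The log2 fold change of *Hes1* was -0.50 (SE 0.20, adjusted p = 0.650 by edgeR), with an unadjusted p under 0.05 and a change short of the fold threshold. *Hey1* (ENSMUSG00000040289, chr3:8663359-8667256, minus strand), the hairy-related repressor, had 420.2, 436.9 and 459.2 CPM in mutant and 417.7, 468.1 and 390.6 CPM in control libraries. Its groups overlapped, and its log2 fold change was 0.04 (SE 0.12, adjusted p = 0.933 by edgeR).

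The 2 libraries of replicate 3 were above the other 4 libraries for 5 of the 10 Notch genes, *Notch1*, *Notch4*, *Dll4*, *Jag1* and *Jag2*, and for 22.6% of all genes tested. The same held for 9 of the 11 endothelial and 8 of the 10 dental epithelium markers, and mutant replicate 3 was the highest library for all 11 endothelial markers. Among their defining genes, *Pecam1*, an endothelial adhesion molecule, had 63.5, 74.4 and 147.2 CPM in mutant libraries and 55.4, 57.8 and 95.2 CPM in control libraries. *Cdh5*, the endothelial cadherin, had 57.2, 55.6 and 193.8 CPM in mutant and 53.2, 64.6 and 117.8 CPM in control libraries. *Krt14*, a basal epithelial keratin, had 183.0, 180.3 and 626.5 CPM in mutant and 200.1, 141.7 and 448.2 CPM in control libraries. Like *Notch4*, *Dll4*, *Jag1* and *Jag2*, these markers were highest in the 2 libraries of replicate 3. For replicates 1 and 2, the endothelial sum was at log2 -0.27 and -0.16 from the control mean in mutant and -0.28 and -0.14 in control. *Dll4* was at -0.80 and -1.13 in mutant and -0.13 and -0.03 in control, and *Jag2* at -1.12 and -1.82 against -0.37 and -0.49. The part of the marked cells in the levels of the Notch genes was not tested. *Rgs5*, a mural cell gene, had 270.3, 310.5 and 330.8 CPM in mutant and 254.4, 257.1 and 210.4 CPM in control libraries, and the 10 mural markers summed to 902.5 to 965.5 CPM in mutant and 779.6 to 835.2 CPM in control libraries.

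**Figure D2:**
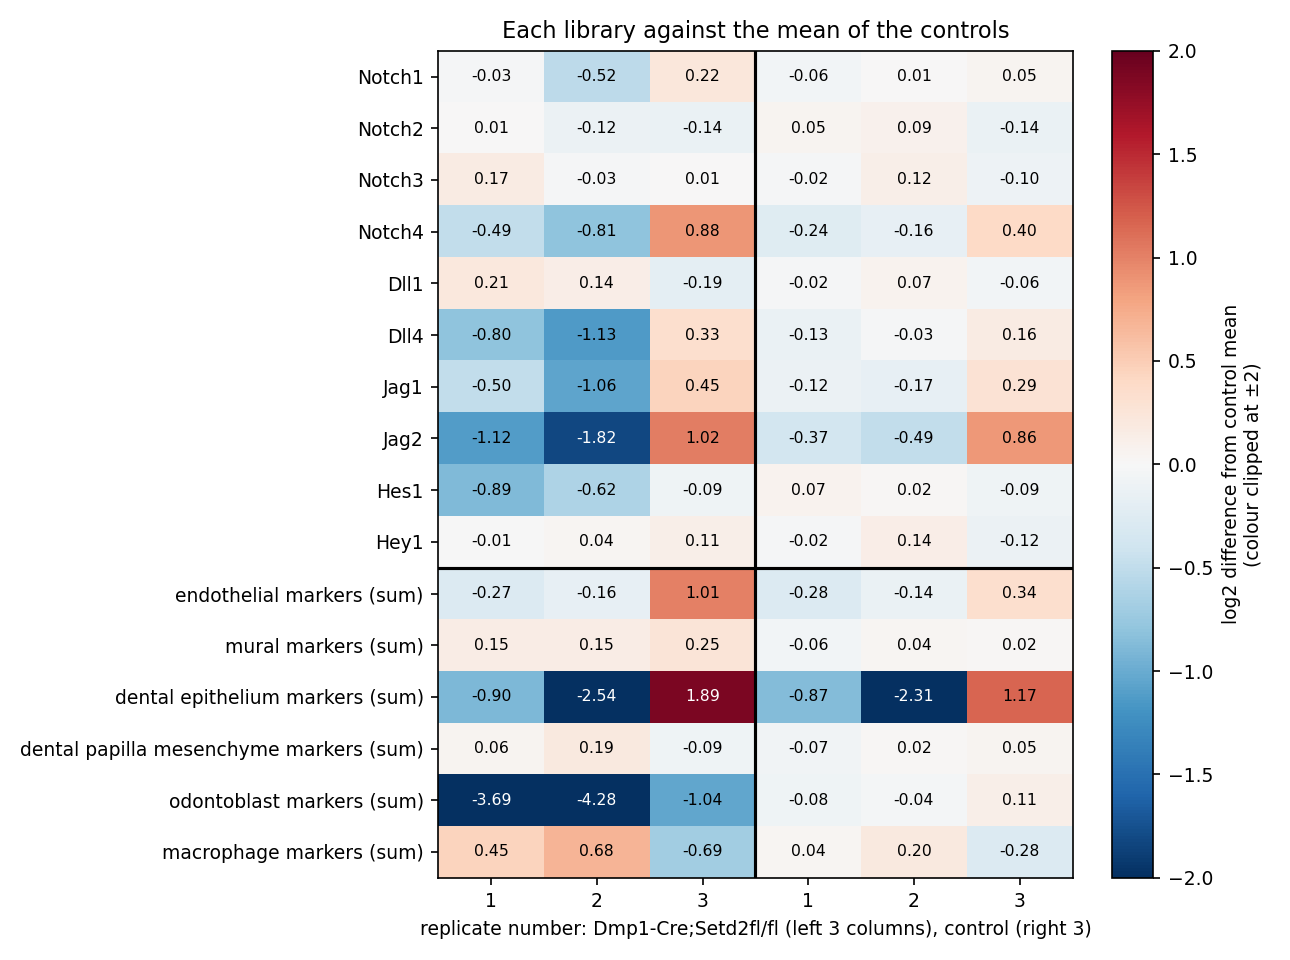
Log2 difference of each library from the mean of the controls, for the 10 Notch genes (log2 CPM) and the summed CPM of 6 marker lists, with mutant libraries in the left columns and control libraries in the right columns, by replicate number. *Jag2* runs from -1.82 in mutant replicate 2 to 1.02 in mutant replicate 3, and the endothelial and dental epithelium sums are highest in replicate 3 of both groups.

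Compared within a replicate number, the difference between mutant and control turned between numbers. *Jag2* was lower by log2 differences of -0.75 and -1.33 for numbers 1 and 2, and its difference was 0.16 for number 3. *Dll4* gave -0.68, -1.10 and 0.17 for numbers 1, 2 and 3. *Jag1* gave -0.38, -0.89 and 0.16. The direction was thus shared by numbers 1 and 2 and opposite, though small, for number 3. *Notch4* gave -0.26, -0.65 and 0.48, and *Hes1* gave -0.96, -0.63 and 0.00. In deviations from the group means across genes, the numbers set apart only replicate 3. Mutant replicate 1 correlated with control replicate 2 (r = 0.455) as with control replicate 1 (r = 0.453). Mutant replicate 2 correlated with both as well (r = 0.38 for control replicate 1 and 0.465 for control replicate 2). The match of numbers 1 and 2 thus rests on the labels. With the number as a block no Notch gene passed the study's thresholds. *Hes1* had a log2 fold change of -0.53 (SE 0.18, adjusted p = 0.210 by edgeR) in that fit.

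Calls among the Notch genes at the study's thresholds depended on mutant replicate 3. Without mutant replicate 3, the study's thresholds called 5 of the 10 Notch genes lower, *Notch4*, *Dll4*, *Jag1*, *Jag2* and *Hes1*, and 6.88% of all genes. That library was the highest mutant library for all 5. Leaving it out left 2 mutant libraries and had to lower the mutant means of the 5. Of the 5, *Dll4* (log2 fold change -0.97, SE 0.16, adjusted p = 0.0184) and *Hes1* (-0.75, SE 0.14, adjusted p = 0.0260) also passed an adjusted p under 0.05 by edgeR, as 2.65% of all genes did in this direction. *Jag1* gave -0.77 (SE 0.21, adjusted p = 0.106) and *Jag2* -1.57 (SE 0.52, adjusted p = 0.190) in the same fit. With replicate 3 of both groups left out, which leaves 2 libraries a group, 4 of the 10 were lower at the thresholds, as were 7.55% of all genes. *Dll4* (-0.87, adjusted p = 0.00695), *Jag2* (-0.99, adjusted p = 0.0182) and *Hes1* (-0.78, adjusted p = 0.00687) were lower at an adjusted p under 0.05 by edgeR, as were 4.48% of all genes. The fourth was *Jag1*, at -0.60 (adjusted p = 0.0697). Leaving out any 1 of the other 5 libraries gave 0 calls among the 10. Among the 4 libraries of numbers 1 and 2, the endothelial sums were 405.0 and 436.0 CPM in mutant against 399.6 and 442.7 CPM in control, and the epithelial sums 7247 and 2330 CPM in mutant against 7406 and 2735 CPM in control. Single epithelial markers could differ from their sum, which *Amelx* and *Ambn* make up for the most part: *Epcam*, an epithelial adhesion molecule, had 2.06 and 2.07 CPM in mutant against 11.1 and 8.05 CPM in control. The macrophage sums were 1178 and 1377 CPM in mutant against 882.7 and 990.7 CPM in control, and the odontoblast sums 6047 and 4030 CPM in mutant against 73856 and 76154 CPM in control. The part of any of these cells in the levels of *Dll4*, *Jag1*, *Jag2* and *Hes1* was not tested. By limma voom with weights on library quality, which gives less weight to libraries that stray, 2 of the 10 were lower at the thresholds, *Dll4* (-0.72, adjusted p = 0.0222) and *Hes1* (-0.83, adjusted p = 0.00261), as were 6.67% of all genes, and both were among the 5.98% of genes lower at an adjusted p under 0.05.

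**Figure D3:**
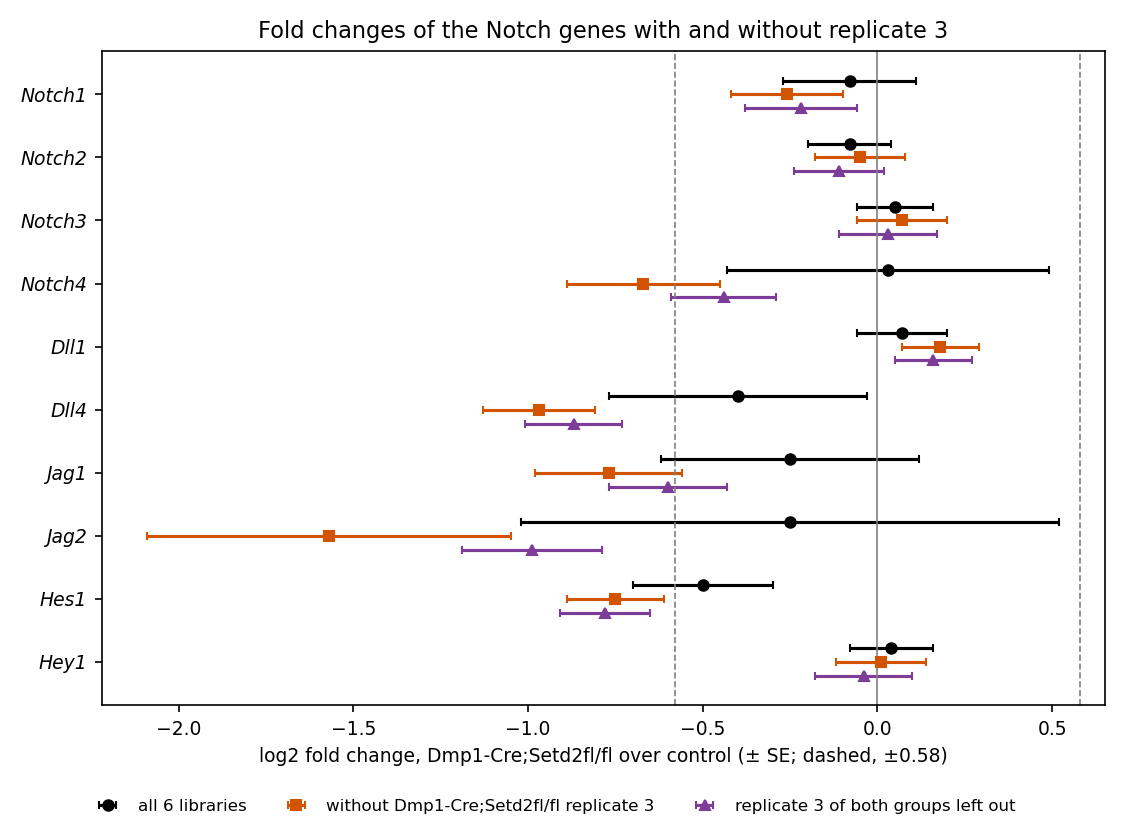
Log2 fold changes (mutant over control, edgeR) of the 10 Notch genes with SE, with all 6 libraries, without mutant replicate 3, and with replicate 3 of both groups left out. Dashed lines mark 0.58 in either direction. *Dll4*, *Jag1*, *Jag2* and *Hes1* lie left of the lower line in both fits without replicate 3 and right of it with all libraries, while *Notch2*, *Notch3*, *Dll1* and *Hey1* stay near 0.

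Set against the endothelial markers of the same library, *Notch4* and *Dll4* did not overlap between the groups. This quantity, and its use for these genes alone, was chosen after the values were seen, and the other Notch genes are not given on it. On the same scale every mutant library lay below every control for 7.06% of all genes tested. The sum it divides by was highest in mutant replicate 3. *Dll4* was at 53.4, 39.4 and 48.5 CPM per 1000 summed endothelial CPM in mutant libraries, against 86.7, 83.5 and 68.3 in control libraries, a ratio of means of 0.593. *Notch4* was at 46.9, 35.0 and 50.5 in mutant and 56.8, 54.1 and 57.1 in control libraries, a ratio of 0.788. On this scale mutant replicate 3 lay between mutant replicates 1 and 2 for *Dll4*. For *Notch4* it was the highest mutant library, at 50.5, near the lowest control at 54.1. The part of endothelial cells in these levels was not tested.

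The library pattern of each Notch gene was compared with 141 genes of the pathway and marker lists by Pearson's r of log2 CPM over the 6 libraries, given as a description, since the libraries share the split of replicate 3 and the genotype. *Notch4* was most like *Epn1* (r = 0.991), an endocytic adaptor, *Kdr* (r = 0.990), the endothelial VEGF receptor, and *Heyl* (r = 0.988), a Hes and Hey family member. *Jag2* was most like *Hey2* (r = 0.989), and so was *Dll4* (r = 0.972). *Dll1* was most like *Abcc9* (r = 0.957), a potassium channel subunit of the mural list, and the macrophage genes *Mrc1* (r = 0.955) and *C1qa* (r = 0.945). *Hes1* stood with other genes, *Phex* (r = 0.950), an endopeptidase of the odontoblast list, *Ctsk* (r = 0.948) and *Epcam* (r = 0.947). *Notch3* was most like *Pdgfrb* (r = 0.860), a mural receptor, and *Hey1* most like *Erg* (r = 0.825), an endothelial transcription factor.

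Of 67 other genes of the pathway, 63 were tested and *Dll3*, *Hes2*, *Hes3* and *Hes5* were not. At the study's thresholds 1 was lower and 0 were higher in mutant libraries, and the median log2 fold change was 0.03, against 0.017 over all genes and -0.08 over the 10 Notch genes. The lower gene was *Tle2*, a Groucho corepressor that Hes proteins recruit, at 595.6, 341.2 and 498.6 CPM in mutant libraries and 874.2, 871.9 and 540.4 CPM in control libraries. Its log2 fold change was -0.67 (SE 0.26, adjusted p = 0.647 by edgeR), and control replicate 3 overlapped the mutant range. *Tle2* lost the call when mutant replicate 2 (-0.48), mutant replicate 3 (-0.70), control replicate 1 (-0.56) or control replicate 2 (-0.56) was left out.

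Among the genes that modify or remove the receptors, *Lfng* and *Dtx4* had an unadjusted p under 0.05. *Lfng*, the Fringe glycosyltransferase that sets which ligands a receptor answers to, had 29.0, 28.9 and 33.3 CPM in mutant libraries and 20.2, 23.4 and 27.1 CPM in control libraries. *Dtx4*, a Deltex ubiquitin ligase, had 64.4, 73.4 and 80.3 CPM in mutant and 54.1, 54.7 and 63.4 CPM in control libraries. Neither overlapped between groups, and both missed the fold threshold, with log2 fold changes of 0.37 (SE 0.15, adjusted p = 0.647) and 0.34 (SE 0.12, adjusted p = 0.629) by edgeR. Of the 63 tested pathway genes, 5 lay above every control in every mutant library, against 7.26% of all genes. An unadjusted p under 0.05 was found for 3 of the 63, against 7.58% of all genes. Neither *Lfng* nor *Dtx4* kept it when control replicate 1, control replicate 2 or mutant replicate 3 was left out. *Lfng* also lost it without mutant replicate 1 (unadjusted p = 0.0631 by edgeR) and stood at 0.05 without mutant replicate 2. *Dtx4* also lost it without mutant replicate 2 (unadjusted p = 0.0544 by edgeR). *Furin*, the convertase that cuts Notch precursors, gave -0.22 (SE 0.14, adjusted p = 0.708), and *Dtx3* gave -0.23 (SE 0.15, adjusted p = 0.714 by edgeR).

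In receptor cleavage, ligand endocytosis and the nuclear activator complex, no gene passed the study's thresholds. All 9 genes of receptor cleavage gave log2 fold changes from -0.06 to 0.23, with *Aph1a* (0.21, SE 0.11, adjusted p = 0.694) and *Aph1b* (0.23, SE 0.14, adjusted p = 0.706), subunits of gamma-secretase, first by p. Ligand ubiquitination and endocytosis genes ran from -0.22 to 0.14, led by *Epn2* (0.14, SE 0.10, adjusted p = 0.736) and *Mib2* (-0.22, SE 0.17, adjusted p = 0.751). In the nuclear complex, *Rbpj*, the DNA-binding partner, had 71.6, 78.1 and 61.7 CPM in mutant libraries and 64.7, 62.1 and 59.0 CPM in control libraries (log2 fold change 0.19, SE 0.12, adjusted p = 0.709). *Snw1*, a coactivator, gave 0.28 (SE 0.23, adjusted p = 0.759). Among the corepressors, which include *Tle2*, the histone deacetylase *Hdac2* gave 0.28 (SE 0.16, adjusted p = 0.696).

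Of the other ligands and targets, *Dlk1*, an atypical ligand, had 47.5, 33.5 and 32.3 CPM in mutant libraries and 21.5, 19.5 and 44.8 CPM in control libraries (log2 fold change 0.40, SE 0.34, adjusted p = 0.766). Control replicate 3 alone overlapped the mutant range. Without it *Dlk1* was called higher at the study's thresholds, at 0.88 (adjusted p = 0.639). *Dlk1* was also called higher with replicate 3 of both groups left out, at 0.99 (adjusted p = 0.00951 by edgeR), and by limma voom, at 1.09 (adjusted p = 0.0138). *Cntn1*, a contactin that can bind Notch, lay between 1.43 and 2.01 CPM in every library and gave 0.26 (SE 0.25, adjusted p = 0.801). *Hey2* was low, at 2.49, 1.96 and 5.81 CPM in mutant and 3.82, 3.74 and 5.84 CPM in control libraries (-0.39, SE 0.44, adjusted p = 0.831), and without mutant replicate 3 it was called lower at the study's thresholds, at -1.0 (adjusted p = 0.140). *Hes7* was at or under 1.52 CPM in every library. *Fbxw7*, the ubiquitin ligase subunit that targets the Notch intracellular domain, and *Numb*, an endocytic inhibitor of Notch, are named after their values were seen, since they were called lower without mutant replicate 3. With *Hey2* they were the 3 of 63 tested pathway genes called lower without mutant replicate 3, against 6.88% of all genes. *Fbxw7* had 15, 16.3 and 35.1 CPM in mutant and 28.2, 27.9 and 37.8 CPM in control libraries, and its log2 fold change of -0.50 (SE 0.34, adjusted p = 0.726) became -1.0 (adjusted p = 0.0249 by edgeR) without that library and -0.59 (adjusted p = 0.145) with the replicate number as a block. *Numb* had 74.4, 63.0 and 224.9 CPM in mutant and 90.6, 83.2 and 150.2 CPM in control libraries. Both thus followed the pattern of *Jag1* and *Jag2*, high in the libraries of replicate 3.

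**Figure D4:**
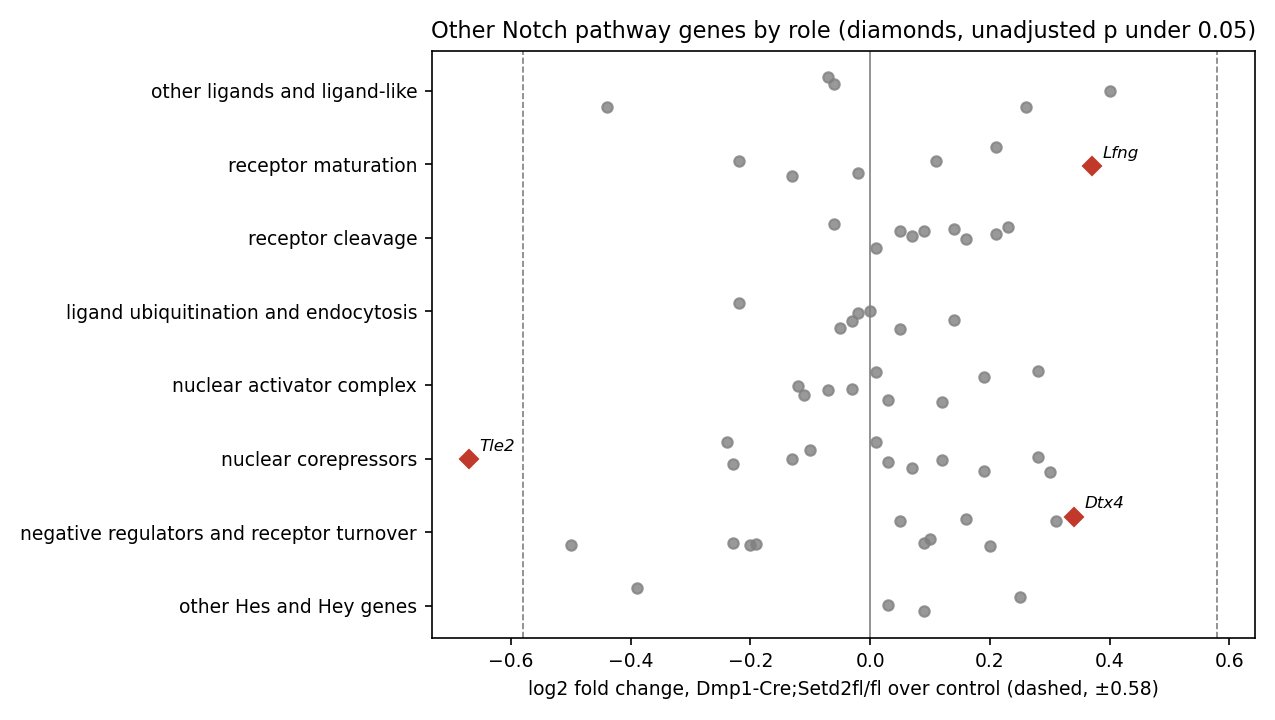
Log2 fold changes (mutant over control, edgeR, all 6 libraries) of the 63 other Notch pathway genes tested, 1 point a gene, in rows by role, with vertical scatter for legibility only. Diamonds mark *Tle2*, *Lfng* and *Dtx4*, the genes with an unadjusted p under 0.05, and only *Tle2* lies outside the dashed lines at 0.58 in either direction.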

How the data were processed

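Bulk RNA-seq of P6 mDPCs was analysed in 3 *Dmp1*-Cre;*Setd2*fl/fl (mutant) and 3 control libraries. Alignment was done by the authors with HISAT2, and HTSeq assigned them to genes ignoring strand, so the deposited columns used here hold raw counts. Bowtie2, DESeq2 and GRCm39 are also named in the submitters' processing notes. The deposited table further gives the authors' own comparison (a mean signal, a fold ratio, its log2 and p-values), which was not used.

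Testing was done in R 4.3.3 with the quasi-likelihood F test of edgeR 4.0.16 (robust, TMM scaling, filterByExpr at 10 counts), with Benjamini-Hochberg adjustment over 16519 genes. Log2 CPM values used a prior count of 2. The test was checked on simulated data. That different pools came from separate mice or litters is not given in the sources used here, and too few mice are listed for all pools to be separate, so the p-values reflect only how these libraries vary, and that variation may be technical. All 10 Notch genes were named. Of the other pathway genes, those past the study's thresholds and the 2 with the smallest p in each role were named. The members and lists were chosen with earlier results of these data known.

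The alternatives tried were DESeq2 1.42.0, scaling by RLE, leaving the 100 highest genes out of the library sizes, no filter, a filter of 10 counts in every library, a block on the replicate number, limma 3.58.1 voom with quality weights, and leaving libraries out. The replicate numbers come from the labels. Across genes, same-numbered libraries deviated together from their group means (r of 0.453, 0.465 and 0.663 for numbers 1, 2 and 3). Mutant replicate 1 and control replicate 2 also correlated, at 0.455, and mutant replicate 2 and control replicate 1 at 0.38. Only replicate 3 was thus set apart, and the block treats numbers 1 and 2 as pairs by label.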

Additional observations from a re-analysis of the deposited data

How the results depend on the processing

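With all libraries, the study's thresholds called 0 of the 10 Notch genes lower. The count was 2 by limma voom with quality weights and 4 with replicate 3 of both groups left out, and it ranged from 0 to 5 with each library left out in turn, where mutant replicate 3 alone gave calls. It stayed at 0 with DESeq2, both other scalings, both other filters, the replicate block and an adjusted p under 0.05, and 0 were higher under every alternative. Across all genes, 448 lower and 181 higher became 1101 and 444 by voom, 722 and 339 with the replicate block, 1261 and 750 with replicate 3 of both groups left out, and 0 and 0 at an adjusted p under 0.05. Leaving out each library gave 282 to 1161 lower and 83 to 677 higher genes, with the fewest without mutant replicate 2 and the most without mutant replicate 3. Without a filter, 338 were higher. Of the other pathway genes, 1 was lower with all libraries, 3 by voom, 2 with the block, 3 with replicate 3 of both groups left out, 0 at an adjusted p under 0.05 and 0 to 3 with each library left out. The higher count of 0 was 1 (*Dlk1*) by voom, 1 (*Dlk1*) with replicate 3 of both groups left out, and 0 to 1 with each library left out (*Dlk1*, without control replicate 3). The replicate block added *Fbxw7* to the calls and changed no other call among the genes named. In all these cases the cause was not tested.

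Log2 fold changes near 0 turned in sign. *Notch4* (0.03) was -0.28 by voom, -0.13 with the block and -0.44 with replicate 3 of both groups left out. *Hey1* (0.04) was -0.08 by voom and -0.04 with replicate 3 of both groups left out, and *Hes7* (0.25) was -0.16 and -0.06. *Numb* (0.16) was -0.16 by voom, -0.03 with the block and -0.33 with replicate 3 of both groups left out. With each library left out, the ranges were -0.26 to 0.10 for *Notch1*, -0.01 to 0.11 for *Notch3*, -0.67 to 0.32 for *Notch4*, -0.01 to 0.18 for *Dll1*, -0.77 to 0.03 for *Jag1*, -1.57 to 0.31 for *Jag2*, -0.01 to 0.12 for *Hey1*, -0.07 to 0.46 for *Hes7* and -0.65 to 0.47 for *Numb*. Per summed endothelial CPM, the ratio was 0.545 to 0.641 for *Dll4* and 0.731 to 0.869 for *Notch4* with libraries left out. These ratios could not reach 1, since every mutant library lay below every control on that scale, so their direction is no check. The planned use of coding lengths from a protein table was not run, and the longest coding length in GENCODE vM39 was used after seeing the data. The precision is limited by 3 libraries a group, each a pool.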
